A study of Mus musculus with 4 samples.

Results

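The genes described here are those named as genes of mitochondrial ribosome proteins, together with C1qbp. C1qbp is an RNA-binding protein of the mitochondrial matrix that is needed for translation there and whose splicing the study assayed. The set was the protein-coding rows of the deposited gene table whose symbol starts with Mrpl or Mrps and a number, plus C1qbp. This gave 78 of the 16449 genes in the table, namely 27 counted as small subunit, 50 counted as large subunit and C1qbp. Mrps18a, which sits in the large subunit despite its name, was counted there. All other Mrpl and Mrps genes were placed by symbol alone. A symbol can name the wrong subunit, or a protein that is not part of the ribosome. The subunit counts, shares and ratios below follow the symbols. The tissue was dorsal and medial pallium (the wall of the embryonic forebrain that forms the cortex and hippocampus) of mouse embryos at E11.5, in 2 libraries labelled WT and 2 labelled Tut1 knockout. By the genotypes given in the study, every embryo carried 2 floxed Tut1 alleles (Tut1 f/f), so WT stands for Tut1 f/f without Cre and knockout for Tut1 f/f;Emx1-Cre. TUT1 adds the uridine tail of U6 snRNA, a core part of the spliceosome. Emx1-Cre acts in the neural stem cells of the dorsal and medial pallium and their progeny. Recombination in the cells of these samples was not measured here.

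Mitochondria translate a small set of mRNAs from their own genome, all of them for subunits of the respiratory chain and ATP synthase. Their ribosome is built from ribosomal RNAs transcribed inside the organelle and from proteins encoded in the nucleus, translated in the cytosol and imported. Some of these proteins have counterparts in the bacterial ribosome, and others are found only in mitochondria.

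RNA was sequenced as Nanopore long reads, and the deposited values are raw read counts per gene. Library totals ranged from 305642 to 397150 counts, with 12442 to 13158 genes detected. Tut1 had 6 and 11 counts in the WT libraries, against 29 and 25 in the knockout-labelled libraries (log2 fold change 1.71 ± 0.40 SE, edgeR adjusted p = 0.0113), against the direction of the label. With a library left out, which leaves a single library in its group and takes the spread from the other group and the prior, the adjusted p was 0.133 without WT replicate 1, 0.0132 without WT replicate 2, and 0.2 and 0.16 without replicate 1 or 2 labelled knockout. Recombination removes exon 2 alone, so a count over the whole gene does not check the label. The libraries are therefore called knockout-labelled throughout. The number of embryos per library is not stated, so the p-values measure the spread between these libraries, which may be technical in part. Summed levels of several marker lists moved with the groups. Dorsal stem and progenitor markers summed to 2151 and 1933 CPM (counts scaled to a common library size) in WT, and to 1284 and 1410 in the knockout-labelled libraries. Of the 7 tested genes in this list, 1 was called lower, while 2 had a log2 fold change above 0. Dividing-cell genes summed to 3977 and 3449 CPM against 2519 and 2782, with 2 of 6 called lower. Neuron and intermediate progenitor markers summed to 533 and 525 CPM against 1137 and 1049, with 2 of 5 tested genes called higher. Microglial markers summed to 93.9 and 92.2 CPM against 345.5 and 291.7, with 3 of 3 tested called higher. None of these markers was at 0 in all libraries. Ventral forebrain, mesenchymal and endothelial markers had sums of 15.2 to 229 CPM in WT and 86.8 to 425 CPM in the knockout-labelled libraries, with 2 genes called higher, while the summed red cell genes overlapped between the groups, with 1 of 5 tested called lower. Xist was detected in WT replicate 1 alone (64 counts), and genes of the Y chromosome in the other 3 libraries (71, 78 and 41 summed counts). The WT libraries therefore came from different embryos, which cannot be told for the knockout-labelled libraries. The part of cell makeup and embryo sex in the results below was not tested. In bulk tissue, fewer cells of a type and less RNA per cell cannot be told apart.

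Of the 78 genes, 44 had enough counts to be tested, and 2 of these passed an adjusted p of 0.05 (4.55%), Mrps24 lower and Mrpl52 higher in the knockout-labelled libraries. Over all 5878 genes tested the share was 2.06%, with 1.4% called higher and 0.663% called lower. At an unadjusted p below 0.05 there were 4 of 44 (9.09%), against 14.2% of all tested genes, the other two being Mrpl22 and Mrps10. In pairs of values set against each other, WT replicates 1 and 2 come first. Fold changes are given as the log2 ratio of the knockout-labelled libraries over WT. Their median was -0.10 over the 44 genes (quartiles -0.22 and 0.29, range -0.58 to 0.88) and -0.01 over all genes tested. Of the 44, 17 lay above 0 (38.6%) and 27 below, against 48.4% above 0 among all tested genes. On the log2 scale 38 of the 44 lay within 0.5 of 0, as did 4384 of all 5878. In 27 (61.4%) the whole 95% interval lay within a change of 2-fold in either direction, against 49.5% of all tested genes. The 2 knockout-labelled libraries lay both above or both below the 2 WT libraries in 12 of 44 genes (27.3%), 5 above and 7 below. In the background of all tested genes this held for 42.9%, with 22.1% above and 20.8% below. Those above were Mrpl22, Mrpl42, Mrpl52, Mrpl58 and Mrps10, and those below Mrpl4, Mrpl17, Mrpl39, Mrps14, Mrps24, Mrps26 and Mrps35. Mrpl58, a peptidyl-tRNA hydrolase built into the large subunit, had 32 and 32 counts in WT against 48 and 29 (0.31 ± 0.28, edgeR adjusted p = 0.697), and Mrps26 had 89 and 92 against 93 and 60 (-0.20 ± 0.21, adjusted p = 0.749).

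**Figure D1:**
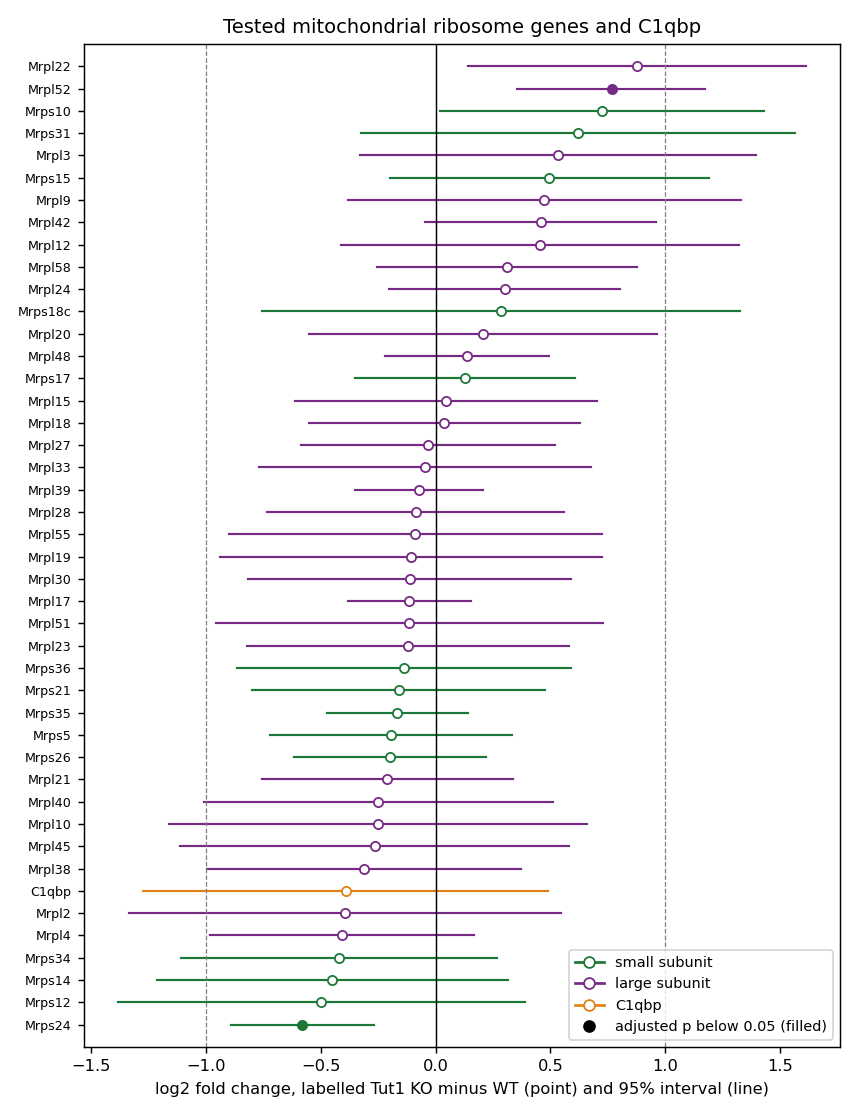
Fitted log2 fold change (knockout-labelled libraries minus WT, 2 libraries each) of each of the 44 tested genes with its 95% interval, coloured by subunit; dashed lines mark a 2-fold change. Mrps24 at -0.58 and Mrpl52 at 0.77 are the filled points, and the other 42 are open.

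Levels differed widely between genes. Expressed as CPM per kilobase of transcript over the 4 libraries, the median was 29.7 (quartiles 9.43 and 82.5), and it was 29.9 in the small and 29.4 in the large subunit. Mrpl17 was highest at 1500, followed by Mrps24 at 699, Mrpl52 at 676, Mrpl48 at 491, Mrpl39 at 401 and Mrps35 at 304 CPM per kilobase. A long read can cover a whole transcript, so dividing by length may not suit these counts, and the order depends on it. In CPM without that division, Mrpl17 was at 1110, Mrpl39 at 920, Mrps24 at 695, Mrps35 at 682, Mrpl48 at 424 and Mrpl52 at 282. These 6 genes, which were also those with the most counts, took 5581 of 10088 counts (55.3%). At the other end, no gene was at 0 in all 4 libraries and 71 of 78 had at least 1 count in each. The 34 genes below the filter had totals of 1 to 36 counts over the 4 libraries (median 15.5), and the tested genes a median total of 95. The lowest level belonged to Mrpl44, a large subunit gene with 1 count in all, which is named here after its values were seen. Whether such genes changed was not detectable at this depth.

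**Figure D2:**
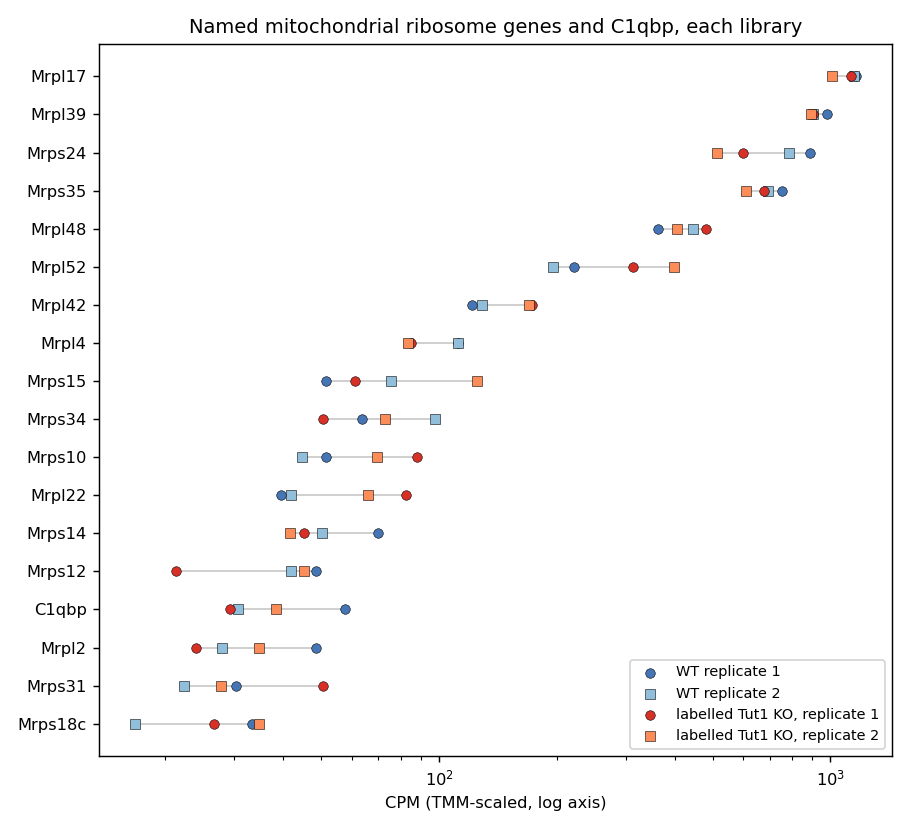
TMM-scaled CPM (log axis) of 18 named genes in each of the 4 libraries, with a grey line from the lowest to the highest. Mrps24 and Mrpl52 show the 2 groups well apart, whereas Mrpl17, Mrpl39 and Mrpl48 have their 4 libraries close together.

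Mrps24 is the counterpart of the bacterial small subunit protein S3 and lies in the head of the subunit. Its gene (ENSMUSG00000020477) is at chr11:5703983-5715680 on GRCm38. It had 293 and 280 counts in the WT libraries, against 225 and 148 in the knockout-labelled libraries, or 887.5 and 782.1 CPM against 597.9 and 514.0 CPM. Both knockout-labelled libraries were below both WT libraries. The group means were 835 ± 74.6 and 556 ± 59.3 CPM (SD, n = 2 libraries each), and the log2 fold change was -0.58 ± 0.15 SE (95% interval -0.89 to -0.27, edgeR adjusted p = 0.0316). Mrpl52, a large subunit protein without a bacterial counterpart, is encoded at chr14:54426909-54429756 (ENSMUSG00000010406). It had 73 and 70 counts in WT, against 118 and 115 in the knockout-labelled libraries, or 221.1 and 195.5 CPM against 313.6 and 399.4 CPM. Here both knockout-labelled libraries were above both WT libraries. The means were 208 ± 18.1 and 357 ± 60.7 CPM (SD, n = 2 each), with a log2 fold change of 0.77 ± 0.20 SE (95% interval 0.36 to 1.18, adjusted p = 0.0316).

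Neither gene was called by DESeq2 (adjusted p of 0.309 for Mrps24 and 0.428 for Mrpl52), after thinning to the smallest library (edgeR adjusted p of 0.0788 and 0.124), with the replicate number as a block (0.0557 and 0.0616) or with a library left out. With total counts in place of TMM the call of Mrps24 was lost (0.0639), and with the trend on transcript length removed that of Mrpl52 (0.0512). Leaving out WT replicate 1, WT replicate 2, replicate 1 labelled knockout or replicate 2 labelled knockout gave log2 fold changes of -0.50, -0.68, -0.70 and -0.48 for Mrps24 (edgeR adjusted p 0.319, 0.0529, 0.2 and 0.307) and 0.85, 0.67, 0.94 and 0.59 for Mrpl52 (0.101, 0.254, 0.172 and 0.352). These fits have fewer samples, and their single library is assumed to vary like the other group. Mrps24 shares 226 exon bases on the same strand with Urgcp, which had 8 and 4 counts in WT, against 9 and 8 in the knockout-labelled libraries.

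The RefSeq promoter windows of both genes (GRCm38.p6, 250 bases before the transcription start to 50 after it, on the strand of the gene) are printed here because these are the 2 genes called, with those of Mrpl17, the most abundant, and C1qbp. Capitals mark matches to the motif letters searched. These are AAGATGGC for YY1 in the Mrps24 window (chr11:5707652-5707951, minus strand) and the ETS family letters CCGGAAG, in reverse as CTTCCGG, in the windows of Mrpl52 (chr14:54426659-54426958, plus strand) and C1qbp (chr11:70982977-70983276, minus strand). The Mrpl17 window (chr7:105811038-105811337, minus strand) holds an ETS match and one to the NRF1 letters, GCGCA and GCGC with a single free base between them.
Mrps24: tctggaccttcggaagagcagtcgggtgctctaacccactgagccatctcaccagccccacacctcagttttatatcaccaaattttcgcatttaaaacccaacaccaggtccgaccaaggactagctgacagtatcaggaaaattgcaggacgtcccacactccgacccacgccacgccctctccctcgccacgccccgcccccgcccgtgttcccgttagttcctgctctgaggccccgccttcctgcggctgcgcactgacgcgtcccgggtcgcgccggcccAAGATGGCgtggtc
Mrpl52: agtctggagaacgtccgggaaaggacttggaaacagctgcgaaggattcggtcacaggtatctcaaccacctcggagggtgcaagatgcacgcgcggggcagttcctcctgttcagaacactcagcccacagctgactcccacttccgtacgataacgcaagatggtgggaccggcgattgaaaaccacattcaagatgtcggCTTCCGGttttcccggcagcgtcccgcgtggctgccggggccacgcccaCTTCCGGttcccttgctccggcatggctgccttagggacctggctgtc
C1qbp: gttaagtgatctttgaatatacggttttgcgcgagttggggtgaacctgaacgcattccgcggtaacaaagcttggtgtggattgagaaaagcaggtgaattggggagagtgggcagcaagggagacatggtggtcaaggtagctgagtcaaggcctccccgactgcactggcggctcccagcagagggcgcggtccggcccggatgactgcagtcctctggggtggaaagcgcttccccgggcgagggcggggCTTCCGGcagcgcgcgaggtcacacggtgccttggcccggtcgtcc
Mrpl17: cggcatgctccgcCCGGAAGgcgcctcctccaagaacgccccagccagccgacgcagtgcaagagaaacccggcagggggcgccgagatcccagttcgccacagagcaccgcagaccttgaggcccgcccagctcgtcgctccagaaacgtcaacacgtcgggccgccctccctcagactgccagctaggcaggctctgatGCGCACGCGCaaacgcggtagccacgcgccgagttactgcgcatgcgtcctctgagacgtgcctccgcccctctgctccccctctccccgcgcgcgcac

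Of the 50 large subunit genes, 29 were tested, 12 with a log2 fold change above 0 and 17 below (median -0.07), and Mrpl52 alone was called. The 19 tested genes with a bacterial counterpart had a median of -0.05 and the 10 without one -0.08. Apart from Mrpl52, the large subunit genes with the most counts were Mrpl17, Mrpl39 and Mrpl48. Mrpl17, a protein near the exit of the peptide tunnel, had 385 and 412 counts in WT, against 424 and 291 in the knockout-labelled libraries, which is 1166 and 1151 CPM against 1127 and 1011 CPM. The knockout-labelled libraries were both lower, and the log2 fold change was -0.11 ± 0.13 SE (95% interval -0.38 to 0.15, adjusted p = 0.79). Mrpl39 had 324 and 324 against 339 and 257 counts (-0.07 ± 0.14, interval -0.35 to 0.21). Mrpl48 had 120 and 160 against 181 and 117 counts with overlapping groups (0.14 ± 0.18, interval -0.22 to 0.49), and the value was -0.01 without WT replicate 1. For each of these 3 genes the interval kept the change under 2-fold in either direction.

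Mrpl22, which lines the peptide tunnel, had the highest fitted value of all 44, with 13 and 15 counts in WT, against 31 and 19 in the knockout-labelled libraries (39.4 and 41.9 CPM against 82.4 and 66.0 CPM). The groups did not overlap, but at this depth its log2 fold change of 0.88 ± 0.36 SE (95% interval 0.14 to 1.61) did not pass the test (edgeR adjusted p = 0.235). Mrpl42 also had both knockout-labelled libraries above WT, with 40 and 46 counts in WT against 65 and 49, or 121.2 and 128.5 CPM against 172.7 and 170.2 CPM (0.46 ± 0.25, adjusted p = 0.424). On the lower side, Mrpl4, another protein of the tunnel wall, had 37 and 40 counts in WT against 32 and 24 (-0.41 ± 0.28, adjusted p = 0.573), again without overlap. Mrpl2, which lies near the peptidyl transferase centre, had 16 and 10 counts in WT against 9 and 10 (-0.40 ± 0.47, adjusted p = 0.794), and its estimate was 0.03 without WT replicate 1.

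Among the 27 small subunit genes, 14 were tested, 5 above 0 and 9 below (median -0.16), and Mrps24 alone was called. The 9 with a bacterial counterpart had a median of -0.16 and the 5 without one -0.17. Mrps35, a protein specific to mitochondria and the second most counted of this subunit, had 248 and 248 counts in WT against 254 and 175 in the knockout-labelled libraries (751.2 and 692.7 against 675.0 and 607.8 CPM). The groups did not overlap in CPM, and the log2 fold change was -0.17 ± 0.15 SE (95% interval -0.47 to 0.14, adjusted p = 0.697). Mrps14 had 23 and 18 against 17 and 12 counts, both lower (-0.45 ± 0.38, adjusted p = 0.664). Mrps12, the decoding-centre protein, gave 16 and 15 counts in WT against 8 and 13 with overlapping groups (-0.50 ± 0.44, adjusted p = 0.687), and its estimate was 0.00 without replicate 1 labelled knockout.

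Mrps34 had 21 and 35 counts in WT, against 19 and 21 in the knockout-labelled libraries, overlapping (-0.42 ± 0.34, adjusted p = 0.647, and -0.08 without WT replicate 2). Its exons overlap those of Nme3 on the same strand and of Mapk8ip3 on the other. The highest fitted value of the subunit was that of Mrps10, with 17 and 16 against 33 and 20 counts and no overlap (0.72 ± 0.35, adjusted p = 0.334). Mrps31 gave 10 and 8 counts in WT against 19 and 8 (0.62 ± 0.47, adjusted p = 0.611), and the value was 0.085 without replicate 1 labelled knockout. Mrps15, which binds the ribosomal RNA early in assembly in bacteria, gave 17 and 27 counts in WT against 23 and 36 (0.49 ± 0.34, adjusted p = 0.573), and the value was -0.06 without replicate 2 labelled knockout. Mrps18c, with 11 and 6 against 10 and 10 counts, was the least counted gene tested (0.28 ± 0.52, adjusted p = 0.877), and -0.15 without WT replicate 2. In all of Mrps15, Mrps18c and Mrps31 the groups overlapped.

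C1qbp (ENSMUSG00000018446, chr11:70977836-70983026) had 19 and 11 counts in the WT libraries, against 11 and 11 in the knockout-labelled libraries, or 57.6 and 30.7 CPM against 29.2 and 38.2 CPM. WT replicate 1 was the high library and the groups overlapped. The log2 fold change was -0.39 ± 0.44 SE (95% interval -1.28 to 0.49, edgeR adjusted p = 0.774), and without WT replicate 1 it was 0.10. These gene counts say nothing of the splicing of C1qbp, which was not analysed here.

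Summed over the 78 genes, their share of all counts was 0.706% and 0.678% in the WT libraries, against 0.706% and 0.680% in the knockout-labelled libraries. The group means were equal within the spread, at 0.692% ± 0.0194 and 0.693% ± 0.0183 (SD, n = 2 each). The small subunit took 0.265% and 0.247% in WT, against 0.236% and 0.228% in the knockout-labelled libraries, which were both lower. Without Mrps24 the groups overlapped, at 0.179% ± 0.00594 and 0.180% ± 0.000283. The large subunit took 0.436% and 0.429% against 0.467% and 0.448%, both higher, and without Mrpl52 the means were 0.413% ± 0.00304 and 0.423% ± 0.019 with overlapping libraries. Large over small subunit counts were 1.64 and 1.74 in WT, against 1.98 and 1.96 in the knockout-labelled libraries, and without both called genes 2.26 and 2.34 against 2.43 and 2.28. An exact two-sided permutation test of 2 against 2 libraries cannot go below p = 0.333, so these shares are given without a test.

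**Figure D3:**
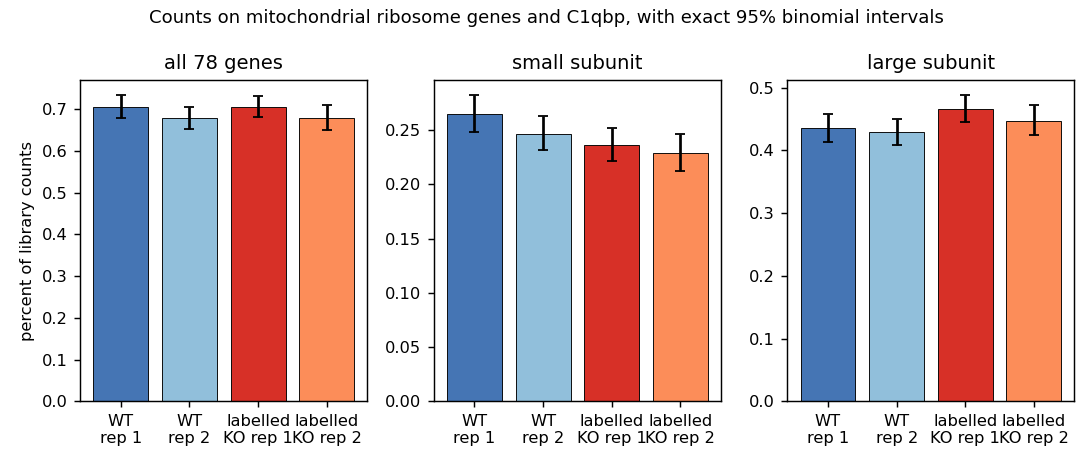
Percent of each library's counts on all 78 genes, on the small and on the large subunit, with exact (Clopper-Pearson) 95% binomial intervals, which cover counting error only. The 4 bars for all 78 genes lie between 0.678% and 0.706%, while the small subunit bars are lower and the large subunit bars higher in the knockout-labelled libraries.

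The ribosomal RNAs of the same ribosome are encoded in mitochondrial DNA. mt-Rnr1, the small subunit RNA, had 115 and 206 counts in WT, against 288 and 184 in the knockout-labelled libraries, or 348.3 and 575.4 CPM against 765.4 and 639.1 CPM. Both knockout-labelled libraries were above both WT libraries, and WT replicate 1 was far below WT replicate 2. The log2 fold change of 0.60 ± 0.18 SE did not pass the test (edgeR adjusted p = 0.0626). It was 0.28 without WT replicate 1 (adjusted p = 0.696) and 1.00 without WT replicate 2 (adjusted p = 0.00312), each against a single WT library. mt-Rnr2, the large subunit RNA, had 1120 and 1816 against 1821 and 1643 counts (3393 and 5072 against 4839 and 5706 CPM). Its groups overlapped, with a log2 fold change of 0.32 ± 0.12 (adjusted p = 0.162). It was 0.05 without WT replicate 1 (adjusted p = 0.946) and 0.63 without WT replicate 2 (adjusted p = 0.000705), so the size rests on which WT library is used. The libraries were made from poly(A) RNA, so the counts of these RNAs need not follow their amounts in the tissue. Of the 13 mRNAs that this ribosome translates, 11 were tested, 6 above 0 and 5 below, and none was called (1 at an unadjusted p below 0.05). That one was mt-Nd6, a subunit of respiratory complex I, with 248 and 307 against 235 and 185 counts (-0.35 ± 0.15, adjusted p = 0.256), and on the higher side mt-Nd5, of the same complex, had 77 and 91 against 100 and 103 counts (0.34 ± 0.20, adjusted p = 0.488). In both genes the groups did not overlap in CPM.

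The other genes of mitochondrial translation were read from lists by role, and none of the genes tested in them was called. Of 5 ribosome proteins with other names, 4 were tested, 1 above 0 and 3 below. Among them Ptcd3, of the small subunit, had 42 and 32 counts in WT against 45 and 53 (0.47 ± 0.28, adjusted p = 0.479), and Gadd45gip1, of the large subunit, had 301 and 309 against 277 and 233 (-0.20 ± 0.14, adjusted p = 0.585). All 7 tested of 15 translation factors and related genes had values above 0 (median 0.12), Mtif2, the initiation factor that brings the first tRNA, with 17 and 13 against 22 and 23 counts (0.64 ± 0.37, adjusted p = 0.472). Of the 20 genes that charge mitochondrial tRNAs, 10 were tested, 3 above 0 and 7 below. Cars2, the cysteinyl enzyme, gave 12 and 10 counts in WT against 18 and 12 (0.49 ± 0.42, adjusted p = 0.677). Of 24 genes for ribosome assembly and ribosomal RNA modification, 5 were tested, 1 above 0 and 4 below, with Mterf3 at 0.15 ± 0.33 and Mettl17 at -0.20 ± 0.37. The value of Mterf3 turned to -0.07 without WT replicate 2 and to -0.10 without replicate 2 labelled knockout. No gene of these 4 lists had an unadjusted p below 0.05.

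Other gene families were set beside these genes. The ribosomal proteins of the cytosol, whose ribosome makes the mitochondrial ones, had 80 of 81 genes tested, with a median log2 fold change of -0.12, 18 above 0, 62 below and 1 called in each direction (2.5%). The nuclear genes of the respiratory chain and ATP synthase had 57 of 90 tested, with a median of 0.11, 36 above 0, 21 below and none called by edgeR (8 at an unadjusted p below 0.05). The medians of all 3 families lay within 0.12 of 0 and were not tested against each other.

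**Figure D4:**
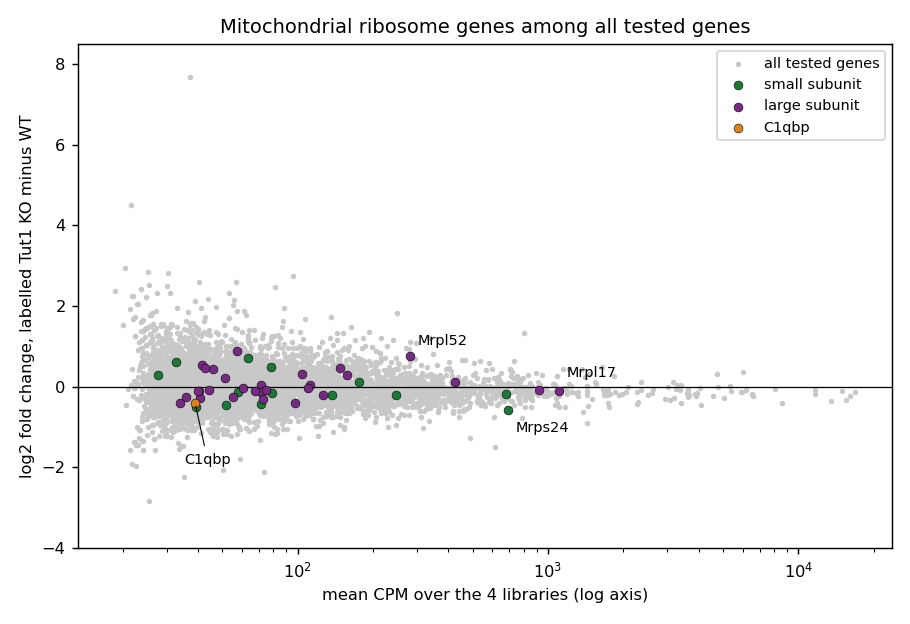
Log2 fold change (knockout-labelled libraries minus WT) against mean CPM over the 4 libraries (log axis) for all 5878 tested genes in grey, with the mitochondrial ribosome genes and C1qbp coloured. The spread of the grey points narrows with level, and the coloured points lie inside it, with Mrps24 and Mrpl52 toward its edges.

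Features of these genes other than their names were also described. They lay on 17 chromosomes, with 12 (15.4%) on chromosome 11, where 8.01% of the protein-coding rows of the table lie. The median transcript of the 44 tested genes was 1008 bases long, against 1994 over all tested genes, at similar depth (medians of 24 and 22 counts per library). The tested genes of the cytosolic ribosome and of the respiratory chain had shorter medians still, 703.5 and 745 bases. RefSeq held 75 promoter windows for 69 of the 78 genes. Searched on both strands, the NRF1 letters were in 17.3% of these windows and in 6.38% of the windows of all protein-coding genes. The ETS family letters were in 34.7% against 11.6% and the YY1 letters in 16.0% against 3.05%. In all, 43 of the 75 windows held at least 1 of the 3, a share that was not computed for other genes. The median GC content was 59.0% against 56.3%. The windows of all protein-coding genes were not limited to genes detected here, and no other gene family was searched separately. The called genes Mrps24 and Mrpl52 carried different motifs among those searched, and C1qbp carried the same ETS letters as Mrpl52. These matches describe letters in a window, not binding.

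Some counts can be shared with other genes. Exons of 32 of the 78 genes overlap those of another gene, 8 of them on the same strand, and whether strand was used in counting is not stated. Mrpl48 shares 708 exon bases with Rab6a on the opposite strand. Mrpl23 had 28 and 22 counts in WT, against 18 and 26 in the knockout-labelled libraries, and its processed pseudogene Mrpl23-ps1 had 32 and 26 against 41 and 21. Their sums of 60 and 48 against 59 and 47 differed little between the groups. How reads that match both were assigned is not stated.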

How the data were processed

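Nanopore long-read libraries of poly(A) RNA, 2 per group, were grouped by the sample labels. The deposited table holds raw counts per gene, with no normalization, which the authors made with minimap2 (v2.24), the Ensembl v102 transcriptome and FLAIR (v2.0.0), on GRCm38 per the submitters' processing notes. How isoforms were summed, how reads that map to several genes were assigned and the use of strand are not stated. Symbols, biotypes and exons came from GENCODE M21 (GRCm38), which matched 16436 of 16449 identifiers. Promoter windows are from RefSeq, GRCm38.p6. Coordinates are 1-based. Some genes covered by the naming rules are not reported here.

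Genes were kept by filterByExpr (minimum count 10, minimum total 15), scaled by TMM and compared across all genes with the quasi-likelihood test of edgeR 4.0.16 (R 4.3.3), two-sided, with Benjamini-Hochberg adjustment over 5878 genes and a threshold of 0.05. The fit had 2 residual and 37.5 prior degrees of freedom, and the common biological coefficient of variation was 10.5%. SE is the absolute log2 fold change over the square root of F. CPM is relative to the counts of the tested genes in each library, TMM-scaled, and per-kilobase levels use the median transcript length. The procedure was tested on simulated data.

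Named were C1qbp, Tut1, both mitochondrial ribosomal RNAs, members past the threshold, the 6 of smallest p in each direction, the 6 with the most and the 3 tested with the fewest counts, and the gene of smallest p in each direction of each pathway list. Mrpl44, Mrpl58, Mrps26, the overlapping genes and the Mrpl23 pair were named after their values were seen. The genes and lists were chosen with earlier results of these data known. Alternatives were other size factors, total counts, no filter, 20 counts in 2 libraries, DESeq2 1.42.0, limma-voom (limma 3.58.1), bias-adjusted quasi-likelihood, a replicate block, each library left out, thinning and removal of the transcript length trend (loess span 0.5).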

Additional observations from a re-analysis of the deposited data

How the results depend on the processing

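The comparison rests on 2 libraries per group, and library totals of 305642 to 397150 counts left 34 of 78 genes untested. Over the alternatives the number of these genes called was 1 with total counts (Mrpl52), 1 with the transcript length trend removed (Mrps24), and 0 with DESeq2 (2 at an unadjusted p below 0.05), with thinning (4) and with each library left out in turn (0 to 0). Over all genes the calls were 12 with DESeq2, 38 after thinning and 3 to 108 with a library left out, the lowest without replicate 1 labelled knockout and the highest without WT replicate 2, against 121. The median log2 fold change was -0.035 with total counts, where the median of all genes was 0.048, -0.037 with no filter (78 tested), -0.043 with at least 20 counts in 2 libraries (27 tested) and -0.055 to -0.012 with a library left out. With no filter, 27 of 78 genes had groups that did not overlap, against 34.6% of all genes. mt-Rnr1 passed the threshold with total counts, no filter, the 20-count filter, limma-voom and without WT replicate 2 (edgeR or limma adjusted p 0.00312 to 0.0447), but not without WT replicate 1 (adjusted p = 0.696). Fits that leave out a library take the spread of the single one remaining from the other group.

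Leaving out a library in turn also changed the sign of some estimates. They ran from -0.799 to 0.100 for C1qbp, -0.763 to 0.028 for Mrpl2 and -0.013 to 0.282 for Mrpl48 (sign changed without WT replicate 1), from -0.154 to 0.826 for Mrps18c (WT replicate 2), -1.072 to 0.003 for Mrps12 (replicate 1 labelled knockout) and -0.061 to 0.966 for Mrps15 (replicate 2 labelled knockout). For Mterf3 they ran from -0.101 to 0.398 (-0.069 without WT replicate 2 and -0.101 without replicate 2 labelled knockout). The cause of these changes was not tested.

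Same-numbered libraries did not deviate together (r = -0.0614 across 5878 genes), and the main fit used no pairing. A low correlation cannot exclude that same-numbered samples were littermates or were prepared together. With the replicate block, 76 genes were called in all and 0 of these 44 (3 at an unadjusted p below 0.05), with adjusted p of 0.0557 for Mrps24 and 0.0616 for Mrpl52 by edgeR.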

Other observations

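Genes that copy and transcribe mitochondrial DNA were not part of the comparisons above. Of 8, 3 were tested and none was called by edgeR (1 at an unadjusted p below 0.05). Ssbp1, the single-stranded DNA-binding protein of the organelle, had 317 and 286 counts in the WT libraries, against 257 and 189 in the knockout-labelled libraries, or 960.2 and 798.8 CPM against 683.0 and 656.4 CPM. Both knockout-labelled libraries were below both WT libraries, with a log2 fold change of -0.39 ± 0.15 SE (edgeR adjusted p = 0.18). Polg, the catalytic subunit of the mitochondrial DNA polymerase, had 44 and 34 counts in WT, against 53 and 43 in the knockout-labelled libraries (0.35 ± 0.26, adjusted p = 0.614), also without overlap in CPM. Neither passed the test.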
